A study of Mus musculus with 4 samples.

Results

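The data describe 10 genes of the Notch pathway in C2C12 cells that differentiated with or without GDF8. The genes are the ligands Jag1, Jag2 and Dll1, the ubiquitin ligase Neurl1b, the receptors Notch1, Notch2 and Notch3, and the target genes Hes1, Hey1 and Heyl. They were taken by the gene name in the scanner files, where Neurl1b is listed as C230078M08Rik, out of 27745 different names on the array. The 10 genes had 15 probes, all of which passed the filter on dim probes. The genes were chosen by name, with their GDF8 over untreated ratios on the same 4 arrays known, so these ratios are given as a description and no p-value is given for them.

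C2C12 is a clonal line of mouse myoblasts that fuses into myotubes when serum is lowered. Both groups were expanded in medium with 10% fetal bovine serum. Differentiation lasted 6 days in horse serum, which the growth protocol puts at 2% and the source names at 10%. The treated group received 20 nM GDF8, recombinant mouse myostatin, every 24 h over the 6 days, and the control group was untreated. Total RNA of 1 treated and 1 untreated replicate was hybridised to each of 4 two-colour Agilent arrays, with GDF8 in Cy5 (red) on replicates 2 and 3 and in Cy3 (green) on replicates 1 and 4. The labels call the replicates biological and arrays 1 and 4 dye swaps, without saying how cultures were kept apart, so errors measure the spread between these samples, and a lone cell line limits the model to that line.

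Notch receptors are activated by ligands of the Delta and Jagged families on a neighbouring cell. Ligand endocytosis, driven by ubiquitin ligases of the Mib and Neuralized families, pulls on the receptor, which is then cut by ADAM proteases and gamma-secretase. The freed intracellular domain joins the DNA-binding protein RBPJ and switches on Hes and Hey genes, whose products are bHLH repressors. In muscle, active Notch signalling is known for holding myoblasts and satellite cells in an undifferentiated state. GDF8 is a ligand of the TGF-beta family that signals through Smad2 and Smad3 and restrains muscle growth.

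Ratios are on the log2 scale, with GDF8 over untreated, so that a value above 0 means more signal with GDF8. The value after ± is the standard error from limma (n = 4 arrays). A probe was called where limma's adjusted p, taken over all 26577 probes tested, was under 0.05. Without replicate 2 the calls over the array dropped from 205 higher and 519 lower to 30 and 184, and without replicate 4 to 60 and 211. The median ratio of all tested probes was 0.012. In these bulk samples fewer cells of a type and less RNA per cell cannot be told apart.

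Of the 15 probes, 1 was called higher, that of Neurl1b, and 0 were called lower, where 0.771% of all tested probes were called higher and 1.95% lower. The ratio was above 0 on all 4 arrays in 6 of the 15, against 7.69% of tested probes, and below 0 on all 4 in 1, against 7.91%. In 4 of the 15 every GDF8 level lay above every untreated level, against 2.05% of tested probes, and in 0 every GDF8 level lay below, against 3.51%. These shares describe genes that were chosen with the comparison in view, and nothing is read from them.

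**Figure D1:**
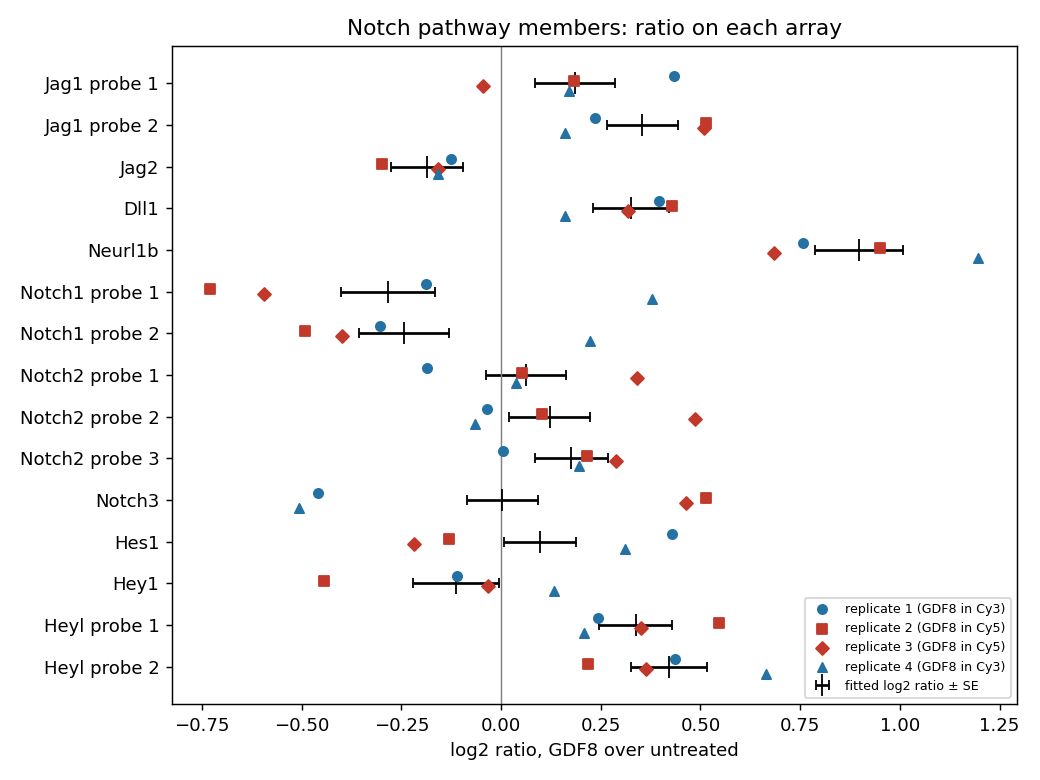
Log2 ratio of GDF8 over untreated cells (x axis) for each of the 15 probes (y axis). Points are single arrays, coloured by the dye of the GDF8 sample, and black marks are the fitted ratio ± SE (n = 4 arrays). Neurl1b lies at 0.69 to 1.20 on the 4 arrays, Dll1 and both Heyl probes lie above 0 on all of them, and the Notch3 points split by dye.

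Among the genes that act on the ligand side, Neurl1b stood highest. Neurl1b is an E3 ubiquitin ligase of the Neuralized family that promotes ligand endocytosis in the signal-sending cell. Its untreated levels (log2 normalised intensity) were 12.53, 12.11, 12.24 and 12.09 in replicates 1 to 4, and its GDF8 levels were 13.29, 13.06, 12.92 and 13.29. The lowest GDF8 level was thus above the highest untreated level. The ratios were 0.76, 0.95, 0.69 and 1.20, and the fitted ratio was 0.90 ± 0.11, or 1.86-fold higher. That put the probe at rank 19 of 26577 when probes were ordered from the largest rise, and it was called higher whichever array was left out (0.79 to 1.01). By the methods' t-test after Benjamini-Hochberg adjustment, which called 26 probes of the array higher, it was not called.

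Dll1, a Delta-family ligand, had untreated levels of 13.37, 13.30, 13.36 and 13.25 and GDF8 levels of 13.77, 13.73, 13.67 and 13.41. Its groups did not overlap either, though the gap was narrow. The ratios were 0.40, 0.43, 0.32 and 0.16, with a fitted value of 0.33 ± 0.09 (1.25-fold), which was not called. The array carried 10 spots of this probe, and the standard deviation over the 10 spots within an array was between 0.017 and 0.045. The standard deviation of the 4 array ratios was 0.12, larger than the spread over spots.

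Jag1, a Jagged-family ligand, was read by a bright and a dim probe. The bright probe gave ratios of 0.23, 0.51, 0.51 and 0.16 on replicates 1 to 4, with a fitted value of 0.35 ± 0.09 (1.28-fold), not called. Its levels overlapped between groups because replicate 1 was low in both channels, at 13.03 untreated and 13.27 with GDF8, while the other arrays lay between 14.25 and 14.81. The dim probe gave 0.43, 0.18, -0.05 and 0.17, with a fitted value of 0.19 ± 0.10, and was well above background in 3 of 4 GDF8 channels. With the authors' deposited log2 table in the same model the dim probe gave 0.38. Jag2, the other Jagged ligand measured, went the other way by a small margin: -0.13, -0.30, -0.16 and -0.16, with a fitted value of -0.19 ± 0.09. It was the member below 0 on all 4 arrays, its levels overlapped between groups, and it was not called.

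**Figure D2:**
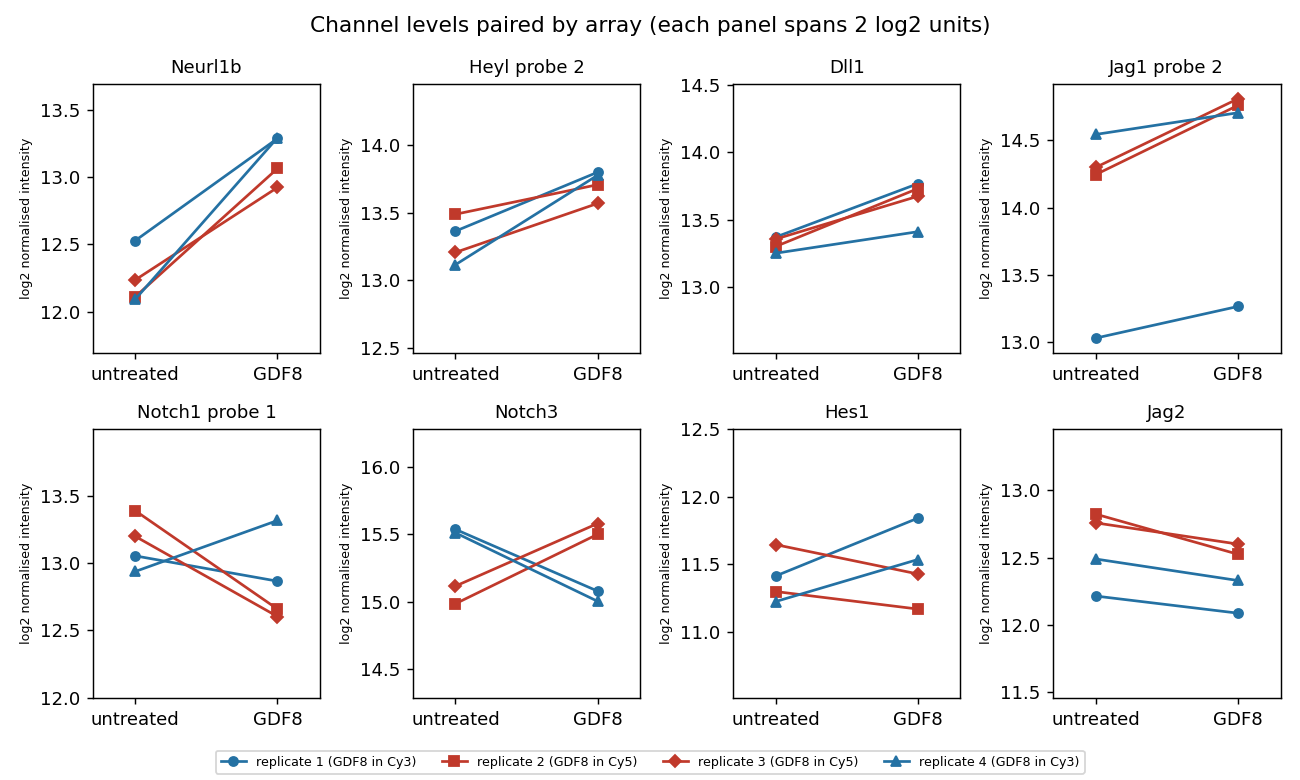
Levels of 8 probes (y axis, log2 normalised intensity, 2 units per panel) in untreated and GDF8 samples (x axis), joined by array and coloured by the dye of the GDF8 sample. All 4 lines climb for Neurl1b, Heyl probe 2, Dll1 and Jag1 probe 2 and all 4 descend for Jag2, while the lines of Notch3 cross by dye.

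The regions around the start sites of Neurl1b, Dll1 and Jag1 are shown because these were the genes on the ligand side with a probe above 0 on every array. Each window runs from 250 bases before to 50 bases from the start site on, as given by RefSeq for build GRCm38.p6, 5′ to 3′ on the gene's strand. The windows are chr17:26414609-26414908 (plus strand) for Neurl1b, chr17:15376883-15377182 (minus strand) for the upstream one of the 2 Dll1 start sites and chr2:137116471-137116770 (minus strand) for Jag1. Capitals mark CAGAC, the box read by Smad proteins, and TTTGAA, the cell cycle element known as CHR, on either strand.
Neurl1b: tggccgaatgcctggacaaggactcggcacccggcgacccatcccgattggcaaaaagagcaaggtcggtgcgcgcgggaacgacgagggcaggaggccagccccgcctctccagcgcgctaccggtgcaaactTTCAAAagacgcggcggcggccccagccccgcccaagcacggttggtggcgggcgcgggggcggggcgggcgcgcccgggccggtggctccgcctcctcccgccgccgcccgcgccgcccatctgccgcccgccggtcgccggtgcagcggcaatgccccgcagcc
Dll1: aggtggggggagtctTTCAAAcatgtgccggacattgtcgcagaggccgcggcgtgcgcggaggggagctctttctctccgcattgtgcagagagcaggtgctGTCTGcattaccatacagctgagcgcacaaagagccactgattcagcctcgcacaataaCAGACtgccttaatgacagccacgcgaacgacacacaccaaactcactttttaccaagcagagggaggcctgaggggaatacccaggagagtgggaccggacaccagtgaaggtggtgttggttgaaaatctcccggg
Jag1: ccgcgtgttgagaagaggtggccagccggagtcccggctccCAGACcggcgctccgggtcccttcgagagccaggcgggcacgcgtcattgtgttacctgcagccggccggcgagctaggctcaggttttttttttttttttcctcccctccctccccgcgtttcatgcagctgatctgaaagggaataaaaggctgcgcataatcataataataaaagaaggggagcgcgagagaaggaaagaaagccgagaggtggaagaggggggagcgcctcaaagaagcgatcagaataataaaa

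The Neurl1b window held 1 TTTGAA match, at position -116 from the start site, and 0 CAGAC matches, and its GC content was 76.0%. The Dll1 window held 2 CAGAC matches and 1 TTTGAA match, and that of Jag1 held 1 CAGAC match. The other Dll1 window held 1 CAGAC match and 0 TTTGAA matches, and the window of Notch3, whose ratio was near 0, held 2 CAGAC matches. Over all 32851 windows of the table, 49.6% held CAGAC and 17.9% held TTTGAA. Windows were listed for 7 of the 10 genes, 8 windows in all, and none for the target genes Hes1, Hey1 and Heyl. All 8 belong to ligands, receptors and Neurl1b. The RBPJ core TGGGAA, searched on both strands, was in 0 of these 8 windows, against 25.6% of all windows, and the longer GTGGGAA, which contains it, was in 0, against 6.38%. A match or its lack in 300 bases describes the letters only.

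Among the receptors, no probe was called. Notch1 had 2 probes that ran together. The first gave -0.19, -0.73, -0.59 and 0.38, with a fitted value of -0.28 ± 0.12, and the second gave -0.30, -0.49, -0.40 and 0.22, with a fitted value of -0.24 ± 0.11. Both were below 0 on replicates 1, 2 and 3 and above 0 on replicate 4. Their dye terms were -0.38 and -0.20. The first probe averaged -0.66 with GDF8 in Cy5 and 0.10 with GDF8 in Cy3. The second averaged -0.45 and -0.04, so the lower values lay mainly on the arrays with GDF8 in Cy5. The first probe was printed in 10 spots, all of which lay between -0.76 and -0.69 on replicate 2 and between 0.28 and 0.41 on replicate 4. The spread over spots (SD 0.019 to 0.039) was under the SD of 0.50 over arrays, and the sign on replicate 4 was shared by all 10 spots. Without replicate 4 the first probe gave -0.42, and without replicate 1 it gave -0.14.

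Notch2 was read by 3 probes, with fitted values of 0.06 ± 0.10, 0.12 ± 0.10 and 0.18 ± 0.09. The highest of the 3 gave 0.0047, 0.21, 0.29 and 0.20 on the 4 arrays. The middle one, saturated in 2 GDF8 and 2 untreated channels, gave -0.03, 0.10, 0.49 and -0.07, and the lowest gave -0.19, 0.05, 0.34 and 0.04. Replicate 3 was the highest array for all 3 probes. Without it the lowest probe gave -0.01.

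Notch3, the third receptor, showed no net ratio (0.0032 ± 0.09, 95% interval of the fit -0.21 to 0.21) and the largest dye term of the members. Its ratios were -0.46 and -0.51 on replicates 1 and 4, where GDF8 was in Cy3, and 0.51 and 0.46 on replicates 2 and 3, where GDF8 was in Cy5. The dye term was 0.49, so the red channel read higher whichever sample it held. The probe was saturated in 1 GDF8 and 1 untreated channel, and its sign was negative with the authors' deposited log2 table (-0.05) and with median centring (-0.06).

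**Figure D3:**
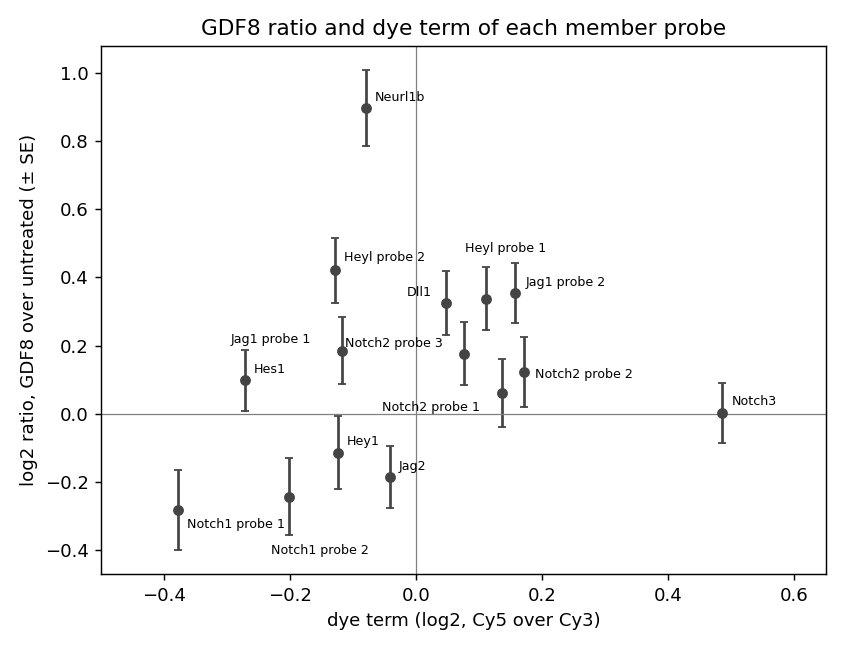
Fitted log2 ratio of GDF8 over untreated ± SE (y axis, n = 4 arrays) against the dye term of the same fit (x axis, log2 of Cy5 over Cy3) for the 15 probes. Neurl1b has a dye term of -0.08 beside a ratio of 0.90, while Notch3 has a dye term of 0.49 beside a ratio of 0.0032.

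Among the target genes, Heyl was the one above 0 throughout. Heyl encodes a bHLH repressor of the Hey family. Its brighter probe had untreated levels of 13.36, 13.49, 13.21 and 13.12 and GDF8 levels of 13.80, 13.71, 13.57 and 13.78, which did not overlap. The ratios were 0.44, 0.22, 0.36 and 0.66, with a fitted value of 0.42 ± 0.09 (1.34-fold). The dimmer probe also separated the groups, with ratios of 0.24, 0.55, 0.35 and 0.21 and a fitted value of 0.34 ± 0.09 (1.26-fold). The order of the arrays differed between the 2 probes, and neither was called.

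Hes1, the Hes-family repressor most used as a Notch readout, gave 0.43 and 0.31 on replicates 1 and 4 and -0.13 and -0.22 on replicates 2 and 3. Its sign thus went with the dye (dye term -0.27), and the fitted ratio was 0.10 ± 0.09 with an interval of -0.11 to 0.31. Hey1, the paralog of Heyl, gave -0.11, -0.44, -0.03 and 0.13, with a fitted ratio of -0.11 ± 0.11. That value was -0.01 without replicate 2, -0.05 without replicate 1, -0.17 without replicate 4 and -0.22 without replicate 3. Over these target genes the fitted ratios therefore ran from -0.11 for Hey1 to 0.42 for the brighter Heyl probe, and differences between the genes were not tested.

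The other genes of the pathway were taken from a list of 49 genes assembled by their role in the pathway, with the members left out. Since the members were chosen with their ratios known, counts over the remaining genes are a description. All 49 had a probe and 40 were tested. In limma 0 of the 40 passed the adjusted threshold in either direction, against 2.72% of all tested probes, and 3 had an unadjusted p under 0.05 by their brightest probe. The share of all tested probes under that unadjusted threshold was not counted, so nothing is read from the 3. The methods' t-test called 0 of the 40 as well, both with a fold over 1.6 and after Benjamini-Hochberg adjustment. The median ratio was -0.02, with 15 genes above 0 and 25 below.

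The 3 genes with an unadjusted p under 0.05 were Lfng, Pofut1 and Tle4, of which Pofut1 is named outside the rule, after its value was seen. Lfng, the Fringe glycosyltransferase that alters how Notch receptors answer Delta and Jagged ligands, gave 0.39, 0.32, 0.19 and 0.73, above 0 on 4 of 4 arrays. The fitted value was 0.41 ± 0.10 (1.33-fold, limma adjusted p = 0.11), and its other probe gave 0.35 ± 0.09. Pofut1, the protein O-fucosyltransferase that Notch receptors need for their fucose, gave -0.35, 0.76, 0.65 and -0.13, a sign that went with the dye, with a fitted value of 0.23 ± 0.09 (limma adjusted p = 0.38). Tle4, a Groucho-family corepressor, was below 0 on 4 of 4 arrays, at -0.29, -0.40, -0.08 and -0.30, with a fitted value of -0.27 ± 0.10 (limma adjusted p = 0.30).

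By role, the 4 tested glycosylation genes had a median of 0.16 and the 8 receptor cleavage genes a median of -0.06 (range -0.13 to -0.01), each gene read by its brightest probe. Other probes of the cleavage genes Aph1a and Aph1b gave 0.07 each, so that the list had no common sign. The cleavage list holds the ADAM proteases and gamma-secretase, and its member with the smallest p was Psenen at -0.13 ± 0.13. The 3 ligand endocytosis genes, Mib1, Mib2 and Neurl1a, had a median of -0.10. Neurl1a, the paralog of Neurl1b, gave -0.61, 0.38, 0.46 and -0.77, a sign that went with the dye, with a fitted value of -0.13 ± 0.09 and 1 untreated channel saturated. The 11 genes of the nuclear complex and its corepressors had a median of 0.0025. The 7 intracellular regulators had a median of -0.01, with Numbl, a Numb-family inhibitor, at 0.15 ± 0.10.

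Of the 5 other ligands 3 were tested (median -0.13), with Dlk1, a non-canonical ligand, at -0.21 ± 0.11. Dlk1 was dim, well above background in 4 untreated and 2 GDF8 channels, and so entered only through the untreated group. Notch4 gave -0.0015 ± 0.10. Of 7 other Hes, Hey and target genes 3 were tested, with a median of -0.11. The gene at the median was well above background in 4 untreated and 3 GDF8 channels, and so entered only through the untreated group. Among the 3, Hes6 is a Hes-family member that does not repress like Hes1. It gave -0.12 ± 0.10 by its brightest probe, with 4 untreated and 3 GDF8 channels saturated. A Hes6 probe with no saturated channel gave -0.31 ± 0.12 (limma adjusted p = 0.36). None of the genes named by role passed limma's adjusted threshold.

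**Figure D4:**
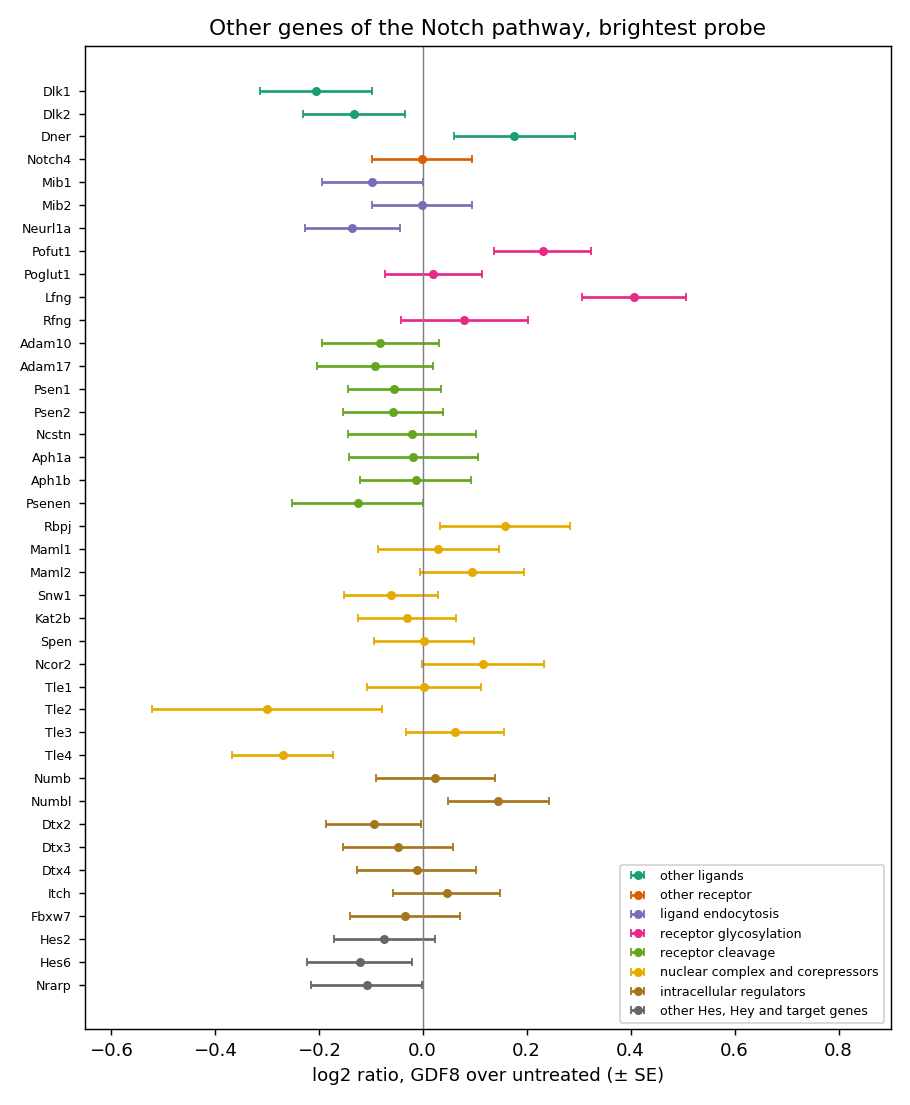
Fitted log2 ratio of GDF8 over untreated ± SE (x axis, n = 4 arrays) for the 40 tested genes of the Notch pathway outside the 10 members (y axis), coloured by role and each read by its brightest tested probe. The values run from -0.30 to 0.41, with Lfng highest.

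The genes whose 4 array ratios lay nearest to those of Neurl1b were Mki67, Kif22, Spc25, Pbk and Prr5l. Likeness was the root mean square difference over the 4 arrays, which was 0.10, 0.13, 0.15, 0.15 and 0.17 in that order. Mki67 is the proliferation marker, Kif22 a chromosome kinesin, Spc25 a kinetochore protein, Pbk a mitotic kinase and Prr5l a partner of the mTOR complex. Their fitted ratios ran from 0.78 to 0.98 and all were called higher. The genes were picked for ratios near those of Neurl1b, so ratios of this size and the calls largely follow from that choice. Nothing is read from these calls. With 4 arrays such likeness is a description, and another Mki67 probe, saturated in 2 GDF8 channels and 1 untreated channel, gave 0.34 and was not called.

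**Figure D5:**
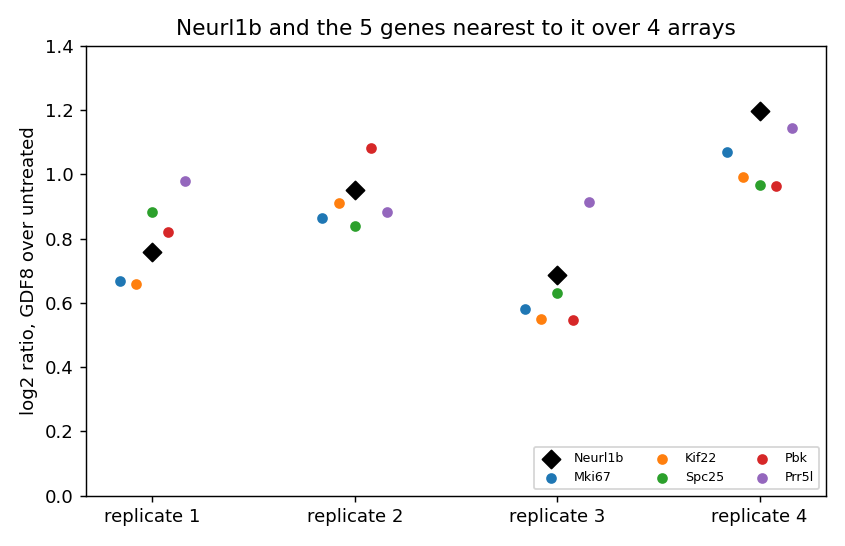
Log2 ratio of GDF8 over untreated (y axis) on each of the 4 arrays (x axis) for Neurl1b (black diamonds) and the 5 genes with the smallest root mean square difference from it. On every array the 6 genes lie between 0.55 and 1.20.

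Markers of dividing cells, listed by role, had ratios above 0. Of 10 such markers 7 were called higher and 0 lower (median 0.77, 10 of 10 above 0), against 0.771% and 1.95% of all tested probes. Their summed linear signal was 193799 to 228502 in the GDF8 channels and 140451 to 167037 in the untreated ones, without overlap. The 2 brightest probes in that sum had saturated channels and were not called. They were Birc5 (mean level 15.87 with GDF8, 15.76 untreated) and Mki67 (15.72 with GDF8, 15.38 untreated). The 7 called were Top2a, Ccnb1, Ccna2, Plk1, Aurkb, Bub1b and Cenpa. The part of dividing cells in the ratios of Neurl1b, Heyl, Dll1 and Jag1 was not tested.

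The cells carried the markers of their labelled type. All 10 markers of differentiating muscle were well above background in all 8 channels; 2 were called lower, Mef2c (-0.95) and Ckm (-0.93), and 8 of the 10 had a saturated channel. Of 8 reserve and satellite cell markers 5 were tested, 0 were called by limma and 0 had an unadjusted p under 0.05, with a saturated channel in 3 of the 5. Markers of other cell types that use Notch were mostly dim. Of 6 endothelial markers 3 were not well above background in any channel, among blood and macrophage markers 3 of 6, and the summed signals of both lists overlapped between groups (1033 to 1348 against 1012 to 1189 for endothelium). Of the 2 endothelial genes tested 0 were called, with Kdr at 0.15 ± 0.09 and Tek at 0.35 ± 0.14, and 1, Tek, had an unadjusted p under 0.05. The nerve and glia list overlapped likewise. The summed signal of the epithelial list did not overlap (9428 to 12759 with GDF8, 6396 to 7757 untreated), but most of it came from Krt14, the one called higher (0.72 ± 0.12) of its 4 tested genes. The other tested epithelial genes were not called and were dim. Cdh1 gave -0.29 ± 0.10, below 0 on 4 of 4 arrays. It was well above background in 4 untreated and 2 GDF8 channels, and so entered only through the untreated group. Krt5 gave 0.02 ± 0.09. Krt8 gave 0.12 ± 0.09 and also entered only through the untreated group, with 3 GDF8 channels well above background. The part of these markers in the ratios of the Notch genes was not tested.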

How the data were processed

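RNA of C2C12 cells was measured on 4 two-colour Agilent arrays (design 014868). Per the file headers, the authors' deposited scanner files hold spot intensity per channel, flags and, on the log10 scale, the red over green ratio from Agilent Feature Extraction 9.1.1.1. Per the series' design text, the authors then used GeneSpring GX 12 with flag filters, an unpaired t-test and a fold over 1.6. Their deposited log2 table equalled the processed ratio turned to GDF8 over untreated in 100% of 40929 single-spot probes, at a tolerance of 0.001, and was not centred (column medians 0.14, -0.09, -0.11 and 0.09).

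Mean signals were corrected by normexp (offset 50) and loess within arrays in limma 3.58.1 under R 4.3.3, with control spots at weight 0 and outlier spots left out. A probe entered if it had a value on all 4 arrays and was well above background in all 4 channels of a group. Each of 26577 probes was fitted with a GDF8 and a dye term, with Benjamini-Hochberg adjustment at 0.05. Ratios lie within arrays, so the array is the block, and all arrays share a slide barcode. Channel levels are after Aquantile. The share of spots saturated was 9.20% to 12.1% in red and 0.745% to 5.49% in green, and the number of arrays limits precision. The fit was also run on simulated data, where it called 19.4% of 1.5-fold, 92.5% of 2-fold and 100% of 3-fold changes. Most simulated 1.5-fold changes thus went uncalled, and 7 of 26377 unchanged probes were called. Changes were simulated in fewer probes than the 724 called on the arrays, so these shares need not hold for the real data.

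Current symbols came from RefSeq names for GRCm38.p6: 24375 probes matched by accession, 6301 by symbol and 2426 by synonym, and 8072 kept the file's name. The brightest tested probe stood for a gene in list counts.

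The members and lists were chosen with earlier results of these data known, and the motifs CAGAC and TTTGAA after the values were seen. Named were all members, in each role list every called gene and that with the smallest p, and the 5 genes nearest in pattern to the member with the largest ratio. Hes1, Hey1 and Heyl had no listed promoter window and were not searched for motifs. Alternatives covered background correction, offset, centring, Aquantile, the dim-probe filter, the dye term, unpaired channels, 1 probe per gene, saturated probes, the methods' t-test, the deposited table and leaving out each array.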

Additional observations from a re-analysis of the deposited data

Results flagged for a closer look

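The 4 array ratios of 28 results (the member probes, the named pathway genes and the 5 genes nearest to Neurl1b) were tested for a lone array standing off from the rest (Dixon's criterion), and 0 of them passed its limit.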

How the results depend on the processing

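Neurl1b stayed called higher under 13 of 14 other settings and without each array, with ratios from 0.88 to 0.91 and from 0.79 to 1.01. These settings were not independent checks. Aquantile, the filters, 1 probe per gene, the dye term, unpaired channels and the methods' t-test left its ratio at 0.90 by construction. Processed signals and the deposited table held the same ratio for it. Neurl1b was not called by the methods' t-test after Benjamini-Hochberg adjustment, where 0 of the member probes were called higher, and 26 probes of the array were higher and 77 lower. By that t-test with an unadjusted p and a fold over 1.6, 87 probes were higher. Without the dye term 88 were higher, and without pairing by array (no replicate block) 70 were higher and 294 lower; the cause was not tested. Leaving out single arrays gave 30 to 155 higher and 184 to 443 lower. Counts of called genes among the other pathway genes were 0 in each direction in every setting run. Among the member probes a sign changed in those of Notch3 and Notch2. Notch3, near 0, was below it with offset 10, processed signals, median centring and the deposited table and without replicate 1 or 2, and the lowest Notch2 probe was at -0.01 without replicate 3. The dim Jag1 probe gave 0.38 with the scanner's processed signals. Probes with a saturated spot, among them that of Notch3 and the middle Notch2 probe, have no value in the setting that leaves such probes out. The other Notch2 probes gave 0.06 and 0.18 there. With 4 arrays the median standard error over all tested probes was 0.10.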
